A study of Drosophila melanogaster with 30 samples.

Results

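The transcripts described here are those of the Drosophila melanogaster larval serum protein genes Lsp1alpha, Lsp1beta, Lsp1gamma and Lsp2 and of Fbp1, taken by gene name from RNA-seq of adult heads. All 5 genes were listed in the count files, among 17918 genes in all. The 30 libraries came from heads of flies collected 22 to 31 h after eclosion and form 6 groups of 5. Flies with repo-Gal4/UAS-bchs::HA overexpress Bchs, the fly counterpart of WDFY3, from an HA-tagged transgene in glia, and flies with nSyb-Gal4/UAS-bchs::HA do so in neurons. Each overexpression group was set against flies with its driver alone (repo-Gal4/+ or nSyb-Gal4/+) and against flies with the transgene alone (UAS-bchs::HA/+), and every group had 5 libraries. Each driver was studied with UAS controls of its own, in a set of 15 libraries called here the glia or the neuron dataset. The labels give neither the sex of the flies nor the number of heads in a library, and they do not say whether libraries came from separate pools, so p-values measure only the spread between these libraries.

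Larval serum proteins are hexamerins, storage proteins that the larval fat body secretes into the hemolymph in the last larval instar and takes up again before the pupa forms, as a store of amino acids for metamorphosis. Lsp1alpha, Lsp1beta and Lsp1gamma encode the subunits of LSP1, Lsp2 encodes the subunit of LSP2, and Fbp1 encodes the fat body receptor through which the storage proteins are taken up. Transcription of Fbp1 and Lsp2 is driven by ecdysone late in larval life, and Lsp2 is known to be transcribed in the adult fat body as well. Freed larval fat body cells persist for a time in the young adult, and the adult head holds fat body of its own.

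Libraries of the glia dataset held 28685786 to 84208964 counts in genes, and those of the neuron dataset 44017794 to 60266009. The bchs transcript was at 1242 ± 52.5 CPM (counts scaled to a common library size, with TMM factors over all libraries; mean ± SD, n = 5) in glial overexpression, at 160 ± 69.7 in repo-Gal4 controls and at 171 ± 85.9 in the UAS controls of that dataset. It was at 422 ± 94.5 CPM in neuronal overexpression, at 99.5 ± 15.4 in nSyb-Gal4 controls and at 89.2 ± 9.73 in their UAS controls. All marker genes of neurons, glia and eye that were looked up were detected in each group. In 2 libraries of the glia dataset, repo-Gal4 control 3 and UAS control 2, long transcripts had fewer counts: the log2 deviation per doubling of transcript length was -0.61 and -0.91 there, against -0.23 to 0.08 in the other libraries. RNA was extracted with Trizol before the column kit in the glia dataset and with the column kit alone in the neuron dataset, so dataset and extraction cannot be told apart. In whole heads, fewer cells of a type and less RNA per cell cannot be told apart either.

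Lsp2 was the most abundant of the 5 transcripts. Per kb of exon, the order Lsp2, Lsp1beta, Lsp1gamma, Fbp1, Lsp1alpha held in 20 of 30 libraries. Lsp1alpha stood above Fbp1 in 8 libraries, and Fbp1 stood above Lsp1gamma in the other 2. Among 15981 genes with counts, ranked by mean CPM per kb, Lsp2 was at rank 579, Lsp1beta at 3084, Lsp1gamma at 9439, Fbp1 at 10252 and Lsp1alpha at 10757. Lsp2 made up 53.0 to 95.9% of the summed CPM per kb of all 5 genes in a library, with a median of 82.1%. The sum ranged from 14.4 to 525 CPM per kb, and the range of single genes over libraries was widest for Lsp2 (51.4-fold) and Fbp1 (47.3-fold), and narrowest for Lsp1gamma (7.68-fold).

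**Figure D1:**
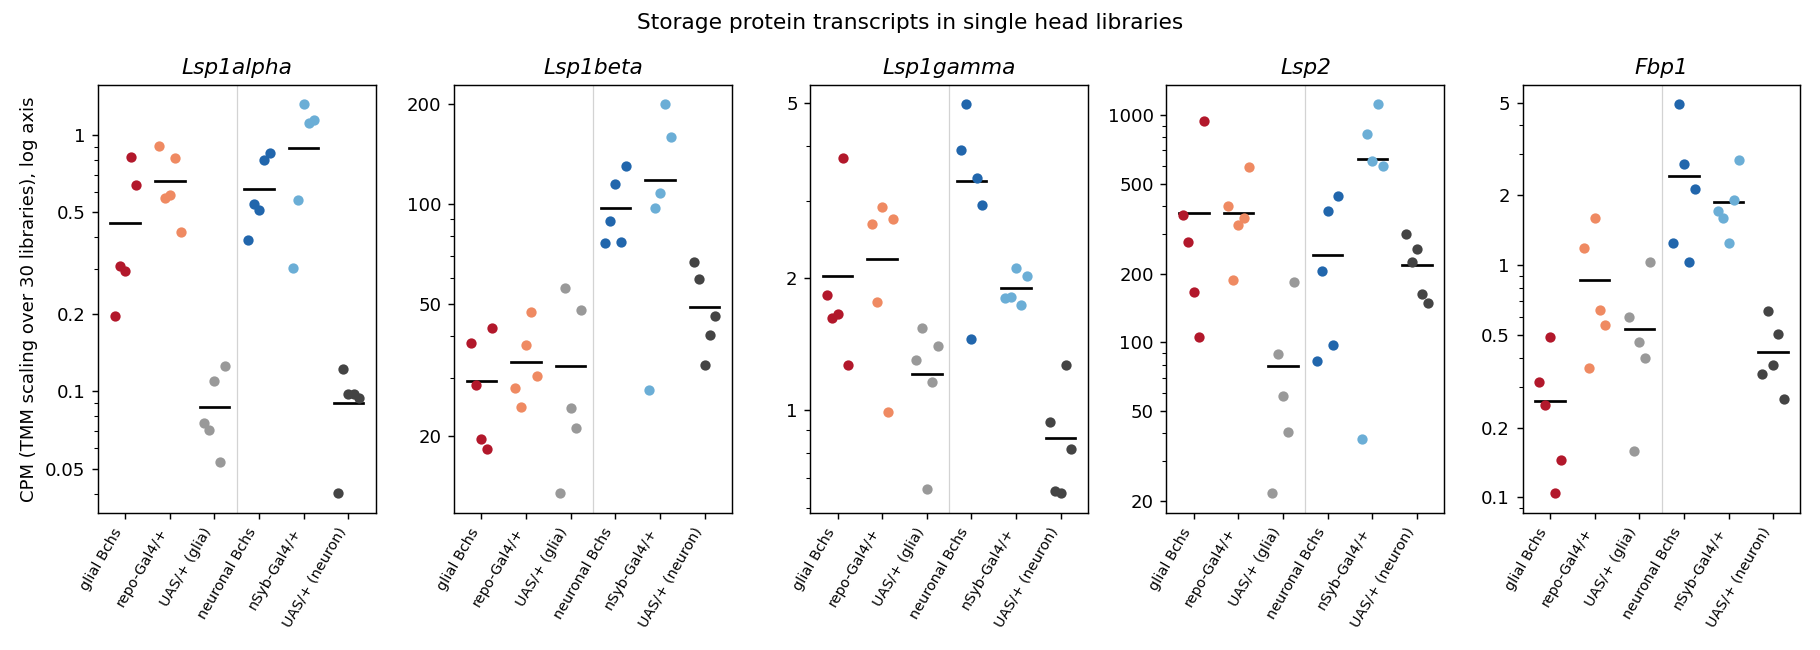
CPM of each gene in single libraries (points, replicates 1 to 5 from left to right; black lines are group means; log axes that differ between panels), with the glia dataset left of the grey line and the neuron dataset right of it. Lsp1alpha lay at or below 0.126 CPM in all 10 UAS control libraries and between 0.197 and 1.31 CPM in the other 20, and in nSyb-Gal4 control 1 Lsp2 was at 37.6 CPM, far below the rest of its group.

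Between Bchs overexpression and the driver controls, Lsp1gamma in the neuron dataset was the single storage gene called. Genes were called by edgeR's quasi-likelihood F test with Benjamini-Hochberg adjustment over all tested genes, at an adjusted p under 0.05. In glial overexpression against repo-Gal4 controls, 0 of 5 genes were called (0.484% of all tested genes), 1 of 5 at an unadjusted p under 0.05, and 0 of 5 with DESeq2. The median log2 fold change of the 5 genes was -0.19 there, against -0.02 over all genes. In glial overexpression against UAS controls 1 of 5 genes was called, higher (1.13% of all genes; 0.753% higher), with a median of 0.75 against -0.09. Between repo-Gal4 and UAS controls it was also 1 of 5, higher (0.888% of all genes; 0.457% higher), with a median of 0.89 against -0.05. The single call in both cases was Lsp1alpha, which passed the filter on low counts through driver flies alone and so had to differ from UAS flies. Of the other 4 genes, 0 were called in these 2 comparisons.

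In the neuron dataset far more of the transcriptome was called, and the counts of storage genes have to be read against that. In neuronal overexpression against nSyb-Gal4 controls 1 of 5 genes was called, Lsp1gamma, higher (16.5% of all genes; 8.19% higher), and the median was -0.29 against -0.0010 over all genes. Against UAS controls 3 of 5 were called, all higher (38.6% of all genes; 18.3% higher), with a median of 1.91 against -0.01. Between nSyb-Gal4 and UAS controls 4 of 5 were called, all higher (25.6% of all genes; 11.8% higher), with a median of 1.54 against -0.01. Lsp1alpha is among the calls against UAS controls here too, and without it 2 of 4 genes were called in neuronal overexpression and 3 of 4 in nSyb-Gal4 controls. Against both controls of a dataset with the same sign, 0 of 5 genes were called in glial overexpression (0.161% of all genes) and 1 of 5, Lsp1gamma, in neuronal overexpression (10.2% of all genes). Comparisons within a dataset share their control libraries and are not independent of each other.

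**Figure D2:**
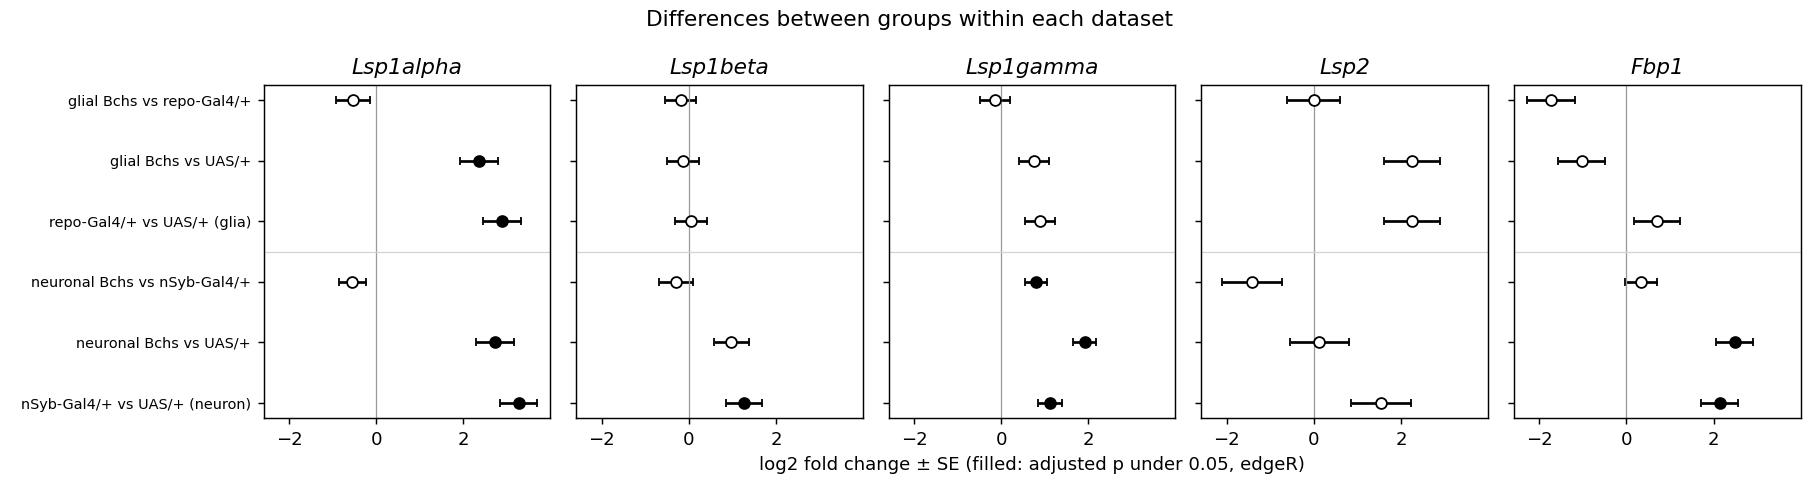
Log2 fold change ± SE of each gene in the 6 comparisons within the datasets (n = 5 libraries a group; filled points have an adjusted p under 0.05 in edgeR; the grey line separates the glia from the neuron dataset). Lsp1alpha lies between 2.36 and 3.27 in the 4 comparisons with UAS flies and at -0.53 and -0.54 against the driver controls.

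Lsp1alpha (FBgn0002562; build BDGP6.54, chromosome X, 12490291 to 12492982, plus strand) encodes the alpha subunit of LSP1. It was at 0.197, 0.309, 0.295, 0.816 and 0.640 CPM in glial overexpression, at 0.907, 0.569, 0.582, 0.816 and 0.420 CPM in repo-Gal4 controls, and at 0.0751, 0.0707, 0.110, 0.0533 and 0.126 CPM in their UAS controls. In neuron dataset libraries it was at 0.391, 0.536, 0.508, 0.800 and 0.850 CPM in neuronal overexpression, at 0.303, 0.557, 1.31, 1.12 and 1.15 CPM in nSyb-Gal4 controls, and at 0.0401, 0.122, 0.0980, 0.0974 and 0.0947 CPM in UAS controls. Every library with a driver lay above every UAS library, and libraries with and without Bchs overexpression overlapped. Lsp1alpha passed the filter on low counts through driver flies alone, so this separation is no support of its own. Among all tested genes, 10.2% had neuronal overexpression wholly above its UAS controls, and the other shares within a dataset were not counted. Levels of Lsp1alpha were low, with 12 to 70 counts per library in driver flies and 2 to 9 in UAS flies.

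The log2 fold change of Lsp1alpha against UAS controls was 2.36 ± 0.43 (SE) in glial overexpression (adjusted p = 0.0139, edgeR) and 2.73 ± 0.44 in neuronal overexpression (adjusted p = 0.00019). For the drivers alone it was 2.89 ± 0.43 with repo-Gal4 (adjusted p = 0.0035) and 3.27 ± 0.42 with nSyb-Gal4 (adjusted p = 3.51e-05). No UAS library exceeded the filter's minimum of 0.134 or 0.201 CPM, so Lsp1alpha passed the filter through driver flies alone and had to differ from UAS flies; its passing adds nothing to these values. Against the driver controls the log2 fold change was -0.53 ± 0.39 in glial overexpression (adjusted p = 1.00) and -0.54 ± 0.31 in neuronal overexpression (adjusted p = 0.284). The UAS flies averaged 0.0870 ± 0.0300 CPM in the glia dataset and 0.0905 ± 0.0303 CPM in the neuron dataset (SD, n = 5 each), a log2 difference of -0.06 ± 0.49 (adjusted p = 0.969, edgeR over all 30 libraries). The call in glial overexpression against UAS flies was lost when the fit held only those 10 libraries (adjusted p = 0.0840). Without repo-Gal4 control 3 and UAS control 2 it was kept, at 2.30 (adjusted p = 0.00811).

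No gene beside Lsp1alpha had a difference of its size between driver and UAS flies. The 5 tested genes on either side lay within 35.6 kb on one side and 78.9 kb on the other. Between repo-Gal4 and UAS controls 0 of these 10 were called, beside 0.888% of all genes, with log2 fold changes of -1.05 to 0.52. Between nSyb-Gal4 and UAS controls 4 of 10 were called, beside 25.6% of all genes, with log2 fold changes of -1.38 to 0.56. Cpr11A, a cuticle protein gene whose start lies 3.32 kb away, had log2 fold changes of -0.40 ± 0.37 and 0.56 ± 0.13 in the glia and neuron datasets. This region was looked at after the values of Lsp1alpha were known.

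**Figure D3:**
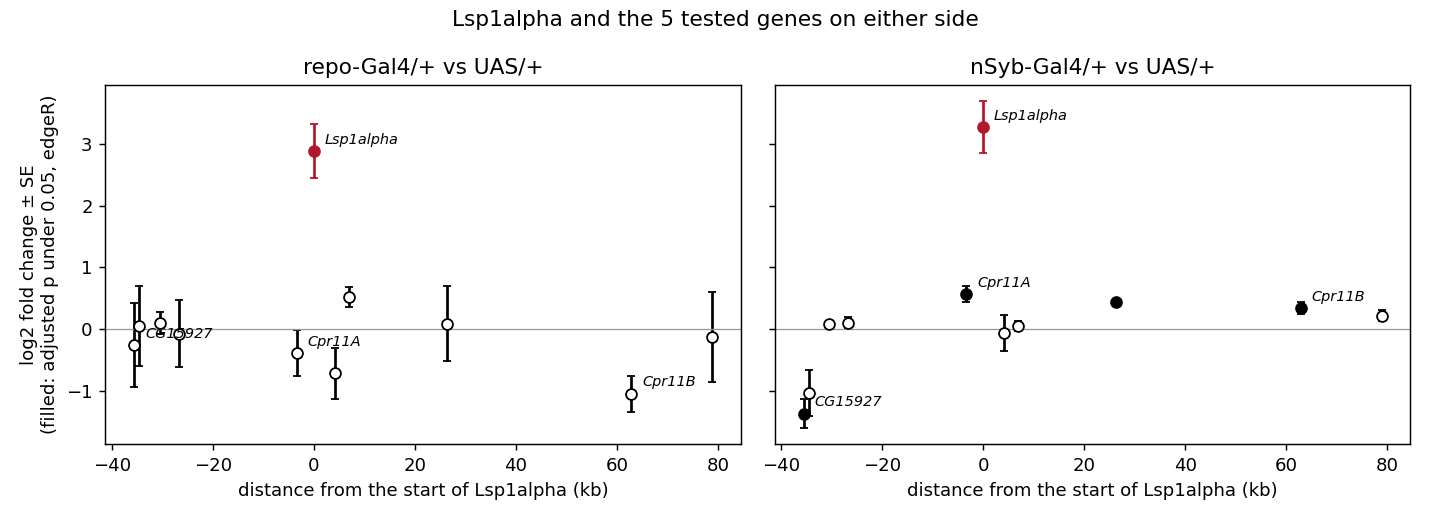
Log2 fold change ± SE of Lsp1alpha (red) and of the 5 tested genes on either side, by distance between annotated starts, for repo-Gal4 against UAS controls (left) and nSyb-Gal4 against UAS controls (right); filled points have an adjusted p under 0.05 in edgeR. Lsp1alpha is at 2.89 and 3.27, and no neighbour exceeds 0.56.

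Lsp1beta (FBgn0002563; chromosome 2L, 898500 to 901316, plus strand) encodes the beta subunit of LSP1 and was the most abundant LSP1 transcript per kb in all 30 libraries. Its CPM in glial overexpression was 38.0, 28.6, 19.6, 18.3 and 42.4, in repo-Gal4 controls 27.9, 24.5, 37.5, 47.3 and 30.4, and in their UAS controls 13.4, 55.9, 24.3, 21.2 and 47.9. In neuronal overexpression it was 76.1, 89.2, 115, 77.0 and 131, in nSyb-Gal4 controls 27.5, 97.1, 108, 200.0 and 159.8, and in their UAS controls 67.0, 59.6, 32.8, 40.3 and 45.9. The 3 groups of the glia dataset overlapped throughout. In the neuron dataset every overexpression library lay above every UAS library, as in 10.2% of all genes. Control 1 of nSyb-Gal4 lay below all of these libraries.

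For Lsp1beta the nSyb-Gal4 controls were higher than the UAS controls, by 1.27 ± 0.41 on the log2 scale (adjusted p = 0.0377, edgeR), and this call was lost in 8 of 15 fits that left out 1 library. The adjusted p was 0.0559, 0.0599, 0.0957 and 0.0608 without nSyb-Gal4 control 2, 3, 4 or 5, and 0.0504, 0.0883, 0.0891 and 0.0550 without UAS control 2, 3, 4 or 5, with log2 fold changes of 1.00 to 1.52 over the 15. It was lost too with no filter on low counts (adjusted p = 0.0558), with only the 2 groups (0.0807) and with all 30 libraries (0.0802). Neuronal overexpression stood at 0.98 ± 0.40 against UAS controls (adjusted p = 0.0723) and at -0.29 ± 0.40 against nSyb-Gal4 controls (adjusted p = 0.718). Without nSyb-Gal4 control 1 the difference from UAS controls passed the threshold (0.98, adjusted p = 0.00902), as it did with only the 2 groups (adjusted p = 0.00917) and in DESeq2 (adjusted p = 0.0427). In the glia dataset the log2 fold changes were -0.19 ± 0.36 against repo-Gal4 controls, -0.13 ± 0.36 against UAS controls and 0.06 ± 0.36 between repo-Gal4 and UAS controls, none of them called.

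Lsp1gamma (FBgn0002564; chromosome 3L, 66430 to 68995, plus strand) encodes the gamma subunit of LSP1. Its CPM was 1.83, 1.62, 1.66, 3.75 and 1.27 in glial overexpression, 2.66, 1.76, 2.91, 0.993 and 2.73 in repo-Gal4 controls, and 1.30, 1.54, 0.660, 1.16 and 1.40 in their UAS controls. It was 3.91, 4.97, 1.45, 3.38 and 2.94 CPM in neuronal overexpression, 1.80, 1.81, 2.11, 1.74 and 2.02 CPM in nSyb-Gal4 controls, and 0.942, 0.653, 0.647, 1.27 and 0.814 CPM in their UAS controls. In the neuron dataset 4 of 5 overexpression libraries lay above all nSyb-Gal4 controls, and replicate 3 lay below them. Both groups lay above all UAS controls, which for overexpression held in 10.2% of all genes. The nSyb-Gal4 controls were the tightest group of any storage gene, with a coefficient of variation of 8.47%.

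Lsp1gamma rose in neuronal overexpression against UAS controls, by 1.91 ± 0.26 on the log2 scale (adjusted p = 5.86e-05, edgeR), and nSyb-Gal4 controls stood above UAS controls by 1.11 ± 0.27 (adjusted p = 0.00785, or 0.0501 with all 30 libraries). Against nSyb-Gal4 controls it rose by 0.80 ± 0.25 in neuronal overexpression (adjusted p = 0.0355), or 1.74-fold, the only storage gene called against both controls of a dataset. That call was lost in 8 of 15 fits that left out 1 library, with log2 fold changes of 0.62 to 0.99 over the 15. The adjusted p was 0.0803, 0.0898 and 0.0659 without neuronal overexpression 1, 2 or 4, and 0.0682, 0.0682, 0.0512, 0.0731 and 0.0606 without nSyb-Gal4 control 1, 2, 3, 4 or 5. With no filter on low counts it was 0.0560. The call was also lost when only these 2 groups were fitted (adjusted p = 0.0532) and in the fit of all 30 libraries (adjusted p = 0.237). In the glia dataset Lsp1gamma stood at -0.13 ± 0.34 against repo-Gal4 controls, at 0.75 ± 0.35 against UAS controls and at 0.89 ± 0.35 between the controls, none of them called.

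Lsp2 (FBgn0002565; chromosome 3L, 12129393 to 12131869, plus strand) encodes the single subunit of LSP2. It was at 362, 278, 168, 106 and 939 CPM in glial overexpression, at 397, 189, 329, 354 and 594 CPM in repo-Gal4 controls, and at 21.7, 89.3, 58.0, 40.6 and 184 CPM in their UAS controls. It was at 83.2, 207, 381, 97.3 and 441 CPM in neuronal overexpression, at 37.6, 824, 632, 1116 and 597 CPM in nSyb-Gal4 controls, and at 300.2, 226, 258, 164 and 149.6 CPM in their UAS controls. All 5 repo-Gal4 controls lay above all UAS controls of the glia dataset, and glial overexpression overlapped both. The share of all genes with such a separation was not counted. Of the nSyb-Gal4 controls 4 lay above every neuronal overexpression library and replicate 1 lay below every library of that dataset.

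No difference in Lsp2 was called by edgeR with all libraries. Against UAS controls the log2 fold change was 2.25 ± 0.64 in glial overexpression (adjusted p = 0.138) and 2.25 ± 0.64 in repo-Gal4 controls (adjusted p = 0.189), and DESeq2 called both (adjusted p = 0.00799 and 0.0104). Against repo-Gal4 controls glial overexpression stood at -0.01 ± 0.61. Neuronal overexpression stood at -1.42 ± 0.69 against nSyb-Gal4 controls (adjusted p = 0.201) and at 0.12 ± 0.67 against UAS controls (adjusted p = 0.898), and nSyb-Gal4 controls at 1.54 ± 0.69 against UAS controls (adjusted p = 0.113). Without nSyb-Gal4 control 1, Lsp2 was called lower in neuronal overexpression than in nSyb-Gal4 controls (-1.72 ± 0.47, adjusted p = 0.0291) and higher in nSyb-Gal4 than in UAS controls (1.85 ± 0.47, adjusted p = 0.0181). The UAS flies of the glia dataset averaged 78.7 ± 63.8 CPM and those of the neuron dataset 219 ± 63.2 CPM, a log2 difference of -1.48 ± 0.65 (adjusted p = 0.291).

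The antisense gene asRNA:CR11538 (chromosome 3L, 12129103 to 12131488, minus strand) covers 2096 of the 2477 exon bases of Lsp2. The library kit does not mark strand, so reads from this stretch cannot be assigned to one gene, and how they were counted is not given in the sources used here. The antisense gene itself was given 0.521 ± 0.289 CPM in glial overexpression, 0.188 ± 0.0486 in repo-Gal4 controls and 0.0758 ± 0.0383 in their UAS controls, and 0.420 ± 0.262 CPM in neuronal overexpression, 1.74 ± 1.81 in nSyb-Gal4 controls and 0.791 ± 0.418 in their UAS controls (SD, n = 5 each). If reads shared by both genes were set aside, the level of Lsp2 per kb is a lower bound. The exons of Lsp1alpha, Lsp1beta, Lsp1gamma and Fbp1 overlap no other gene.

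Lsp2 and Lsp1beta varied together among libraries of a group. Over deviations from group means of log2 CPM, Pearson's r was 0.82 and Spearman's rho 0.85 in the glia dataset (n = 15; permutation within groups, p adjusted over 20 relations 0.0216 and 0.0152). In the neuron dataset r was 0.88 and rho 0.75 (n = 15; permutation p adjusted 0.0250 and 0.0426). Leaving out the 2 libraries farthest from the median of Lsp1beta gave r = 0.83 in the glia dataset and r = 0.60 in the neuron dataset, where those libraries were nSyb-Gal4 controls 1 and 4. None of the other 18 relations between storage genes had an adjusted p under 0.05, and r lay between -0.23 and 0.63 among them.

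Although they varied together within groups, the ratio of Lsp2 to Lsp1beta differed between groups. Per kb, it was 6.42 to 24.6 in glial overexpression (median 10.6) and 8.32 to 21.7 in repo-Gal4 controls (median 9.74), against 1.77 to 4.26 in their UAS controls (median 2.12), with no overlap. For the other driver it was 1.21 to 3.74 in neuronal overexpression (median 2.57), 1.52 to 9.42 in nSyb-Gal4 controls (median 6.19) and 3.62 to 8.73 in their UAS controls (median 4.52). There the lowest ratios were in neuronal overexpression, which overlapped both controls. These ratios are a description without a test, since they were formed after the levels were seen.

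**Figure D4:**
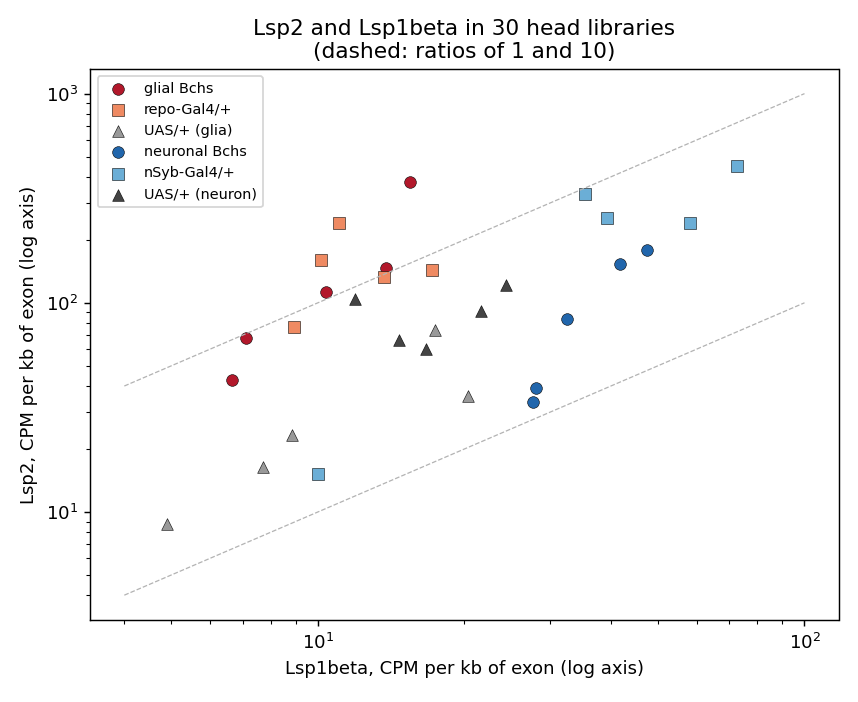
CPM per kb of Lsp2 against Lsp1beta in each of the 30 libraries (log axes; dashed lines mark ratios of 1 and 10; colours and symbols give the group). Glial overexpression and repo-Gal4 controls lie along the ratio of 10, and the UAS controls of the glia dataset lie at ratios of 1.77 to 4.26.

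Fbp1 (FBgn0000639; chromosome 3L, 14094589 to 14098053, minus strand) encodes the storage protein receptor of the fat body. Its CPM was 0.313, 0.250, 0.492, 0.104 and 0.145 in glial overexpression, 1.19, 0.360, 1.59, 0.638 and 0.555 in repo-Gal4 controls, and 0.601, 0.159, 0.468, 0.399 and 1.04 in their UAS controls. It was 1.25, 4.93, 2.73, 1.03 and 2.12 CPM in neuronal overexpression, 1.71, 1.60, 1.25, 1.92 and 2.84 CPM in nSyb-Gal4 controls, and 0.341, 0.633, 0.372, 0.503 and 0.265 CPM in their UAS controls. In the glia dataset the groups overlapped, with glial overexpression lowest on average. Of the neuron dataset, every library with the driver lay above every UAS library, and overexpression overlapped the driver controls. Among all tested genes, 10.2% had neuronal overexpression wholly above its UAS controls, and the share for nSyb-Gal4 controls was not counted.

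Fbp1 was higher than in UAS controls by 2.48 ± 0.42 on the log2 scale in neuronal overexpression (adjusted p = 0.000492, edgeR) and by 2.14 ± 0.43 in nSyb-Gal4 controls (adjusted p = 0.00262). These correspond to 5.58-fold and 4.40-fold. Neuronal overexpression stood at 0.34 ± 0.36 against nSyb-Gal4 controls (adjusted p = 0.616). In glial overexpression the log2 fold change was -1.74 ± 0.55 against repo-Gal4 controls (adjusted p = 0.404) and -1.03 ± 0.54 against UAS controls (adjusted p = 0.755), and between repo-Gal4 and UAS controls it was 0.71 ± 0.53 (adjusted p = 1.00).

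With both control groups averaged, the effect of Bchs overexpression on Fbp1 differed between the datasets. Taken as overexpression less the average of its 2 control groups, it was -1.38 in glia and 1.41 in neurons (log2, within each dataset). The 1.41 averages 0.34 against nSyb-Gal4 and 2.48 against UAS controls. In the fit of all 30 libraries the glial minus the neuronal effect was -2.82 ± 0.59 (adjusted p = 0.0107, edgeR), the only call among 5 storage genes, lower (1.10% of 11137 genes; 0.557% lower). Set against UAS controls only the difference was -3.53 ± 0.69 (adjusted p = 0.00316), and against the Gal4 controls only it was -2.10 ± 0.66 and not called (adjusted p = 0.269). The same difference was -1.08 ± 0.38 for Lsp1gamma (adjusted p = 0.235, or 0.0479 at -0.97 without repo-Gal4 control 3 and UAS control 2), 1.75 ± 0.79 for Lsp2 (adjusted p = 0.517), -0.52 ± 0.47 for Lsp1beta (adjusted p = 0.938) and -0.20 ± 0.48 for Lsp1alpha (adjusted p = 0.989). Between the UAS controls of the glia and of the neuron dataset 0 of 5 storage genes were called (3.05% of all genes), by edgeR or DESeq2, and 1 of 5, Lsp2, had an unadjusted p under 0.05.

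Ordered by mean CPM, nSyb-Gal4 controls were highest for Lsp1alpha, Lsp1beta and Lsp2, and neuronal overexpression was highest for Lsp1gamma and Fbp1. The lowest groups were the UAS controls of the glia dataset for Lsp1alpha and Lsp2, the UAS controls of the neuron dataset for Lsp1gamma, and glial overexpression for Lsp1beta and Fbp1. Of the 25 pairs of neighbouring groups in these orders, 3 did not overlap: glial overexpression above the UAS controls of the neuron dataset for Lsp1alpha (9.40% of all genes), neuronal overexpression above its UAS controls for Lsp1beta (10.2%), and nSyb-Gal4 controls above the UAS controls of the glia dataset for Lsp1gamma (6.40%). Each of the 3 had an exact two-sided permutation p of 0.00794, the smallest that 5 against 5 libraries allow, and 0.0661 after adjustment over the 25 pairs. Complete separation of 3 pairs cannot pass the threshold at this size, so this test does not decide whether they differed. The neighbours were set by sorting the same means, and the other 22 pairs overlapped.

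The genes whose log2 CPM was most like the mean of the 5 storage genes, ranked by the smaller of the Pearson r in the 2 datasets among 10673 genes (15 libraries each), were CG14377, Amy-d, GstT4, Ugt49C1, Cyp12d1-p, CG15347, CG32650 and yellow-e. The smaller r was 0.84 for CG14377, 0.82 for Amy-d and 0.76 for yellow-e. Over the 8 genes and both datasets, Spearman's rho lay between 0.60 and 0.90, and r without the 2 libraries farthest from the median of the storage mean between 0.57 and 0.84. Amy-d, an amylase gene, ranged from 4.61 to 29.2 CPM in the glia dataset and from 7.40 to 39.9 CPM in the neuron dataset. GstT4, a glutathione transferase gene, ranged from 82.1 to 149.7 and from 85.4 to 157 CPM. CG32650 was near the floor, at 0 to 0.594 CPM in the glia and 0 to 1.37 CPM in the neuron dataset, so its r is uncertain. Amy-d and Cyp12d1-p have near-identical copies beside them, so the split of reads between copies is uncertain. The libraries share their group differences in this measure, and the storage genes themselves had an r with their own mean of 0.38 (Fbp1) to 0.90 (Lsp2) in the glia dataset and 0.61 (Lsp2) to 0.93 (Lsp1alpha) in the neuron dataset.

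Relatives of the storage proteins were measured beside them. The prophenol oxidases belong to the same protein superfamily as the hexamerins, and PPO3, expressed in lamellocytes, was at 0.721 ± 0.238 CPM in neuronal overexpression and 0.290 ± 0.157 CPM in nSyb-Gal4 controls, higher by 1.29 ± 0.35 on the log2 scale (adjusted p = 0.0183, edgeR). It stood at 0.54 ± 0.33 against UAS controls (adjusted p = 0.199). Fbp2, a second larval fat body gene, was at 0.241 ± 0.155 CPM in neuronal overexpression, 0.479 ± 0.396 CPM in nSyb-Gal4 controls and 0.0515 ± 0.0330 CPM in their UAS controls. Its log2 fold change against UAS controls was 2.15 ± 0.79 in neuronal overexpression (adjusted p = 0.0419) and 3.17 ± 0.71 in nSyb-Gal4 controls (adjusted p = 0.00478). In the glia dataset it stood at 1.24 ± 0.58 in glial overexpression (adjusted p = 0.622) and 1.53 ± 0.58 in repo-Gal4 controls (adjusted p = 0.533) against UAS controls. In the neuron dataset 16.5% of all genes were called against nSyb-Gal4 controls, 38.6% in overexpression against UAS controls and 25.6% between the controls. PPO1, PPO2, PPO3 and Fbp2 held 0 of 4 calls against both controls in either dataset (0.161% of all genes in the glia and 10.2% in the neuron dataset). Without repo-Gal4 control 3 and UAS control 2 there was 1, PPO1, higher in glial overexpression, beside 330 higher and 112 lower of 11129 genes.

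Adult fat body genes changed in both directions in neuronal overexpression. Of 16 tested, 1 rose and 4 fell against both controls, beside 4.74% and 5.43% of all genes. Tsf1, a transferrin named after its values were seen, rose by 0.85 ± 0.27 against nSyb-Gal4 and 1.19 ± 0.28 against UAS controls. The female-biased gene fit fell by 2.04 and 2.24, AkhR, the adipokinetic hormone receptor, by 0.67 and 0.90, FASN1, a fatty acid synthase, by 0.58 and 0.45, and Lsd-1, a perilipin, by 0.44 and 0.48. The summed CPM of all 17 listed genes overlapped between groups, with 6725 to 9597 in neuronal overexpression, 8163 to 11501 in nSyb-Gal4 controls and 7092 to 8742 in their UAS controls, and Pepck1 was at 0 in every library. In the glia dataset the sums were 7622 to 9246 in glial overexpression, 6108 to 14089 in repo-Gal4 controls and 5187 to 11747 in their UAS controls. Against both controls 0 of 16 were called there (0.161% of all genes). Without repo-Gal4 control 3 and UAS control 2 there were 2, Pepck2 and Tsf1, both higher, beside 330 higher and 112 lower of 11129 genes. The part of fat body content in the storage gene levels was not tested.

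Yolk protein transcripts, made in fat body and ovary of females, also overlapped between groups. Summed over Yp1, Yp2 and Yp3, they reached 18219 to 40369 CPM in glial overexpression, 9932 to 63193 in repo-Gal4 controls and 24092 to 107599 in their UAS controls. They reached 16827 to 39144 CPM in neuronal overexpression, 37245 to 62334 in nSyb-Gal4 controls and 29596 to 59452 in their UAS controls. Against UAS controls 3 of 3 were called lower in neuronal overexpression, with a median log2 fold change of -0.72. Of all genes 38.6% were called there in either direction, and 18.3% were called higher. Against nSyb-Gal4 controls 1 of 3, Yp2, was called lower (16.5% of all genes called in either direction, 8.19% higher). Yp2 fell by 0.96 ± 0.25 against nSyb-Gal4 and 0.89 ± 0.25 against UAS controls. The part of sex and yolk gene activity was not tested.

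Of other genes of late larval and pupal life, 0 of 21 ecdysone response genes were called against both controls in either dataset (0.161% of all genes in the glia and 10.2% in the neuron dataset). Against UAS controls alone, 10 were higher and 5 lower in neuronal overexpression (38.6% of all genes called), and 4 were higher and 1 lower in nSyb-Gal4 controls (25.6% of all genes called). Between neuronal overexpression and nSyb-Gal4 controls, and in the 3 comparisons of the glia dataset, 0 of 21 were called by edgeR. Of the larval glue genes Sgs1 alone passed the filter and was not called, and Sgs3, Sgs4, Sgs5, Sgs7 and Sgs8 had at most 3 counts in any library. Of 9 tested genes of eclosion and tanning, 1, stw, rose in neuronal overexpression against both controls, beside 4.74% of all genes, by 0.38 ± 0.10 against nSyb-Gal4 and 0.55 ± 0.10 against UAS controls. Of 10 cell death genes, 3 rose there against both controls, again beside 4.74% of all genes: the caspase Dronc by 0.51 and 0.71, the caspase Dcp-1 by 0.39 and 0.34, and the Hid-Grim-Reaper family gene rpr by 0.64 and 0.69.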

How the data were processed

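The values are counts of reads per FlyBase gene, not normalised, deposited by the authors as 1 file per library. The notes name STAR, HTSeq and BDGP6, per the submitters' processing notes; versions, the annotation and whether strand was used are not given in the sources used here. Counters and other features that name no gene stayed out, and counts outside genes were 3.27 to 6.09% in glia dataset libraries and 4.34 to 5.07% in neuron dataset libraries, besides reads aligned to several places (1.67 to 2.42% and 4.60 to 6.13%). Symbols matched 17790 of 17869 and 17626 of 17753 identifiers, and coordinates and exon lengths came from the Ensembl annotation of BDGP6.54.

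Tests ran in edgeR 4.0.16 under R 4.3.3, with limma 3.58.1 loaded: filterByExpr, TMM scaling, robust quasi-likelihood F tests and Benjamini-Hochberg adjustment over 11149 genes of the glia and 10778 of the neuron dataset, each fitted with its 15 libraries, 3 groups and no covariates. Comparisons across datasets came from 1 fit of 30 libraries and 6 groups over 11137 genes. All 5 storage genes passed the filter in both datasets. The SE is that implied by the F statistic. The tests were tested on simulated data. Printed levels are CPM with TMM factors computed over 30 libraries. Groups that do not overlap in CPM were counted without a test. Correlations used log2 CPM with a prior count of 2 and 100000 permutations within groups, and exact permutation tests were two-sided (scipy 1.17.1; Python 3.11.15, matplotlib 3.10.9).

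Alternatives were DESeq2 1.42.0, RLE scaling, no filter, a replicate block, fits of 2 or 6 groups, levels per longest transcript or without TMM, and fits without single libraries. Effects against 1 kind of control, the neighbouring genes, and list counts without 2 libraries were added after seeing the data. No 2 libraries agreed within sampling noise (lowest chi-square per degree of freedom 12.7). The storage genes, the other gene lists and the rule for the 8 most similar genes (largest smaller r over both datasets) were chosen with earlier results of these data known. The text names all storage genes, relatives of the hexamerins, and list members called against both controls. Depth limits Lsp1alpha and Fbp1 most, with as few as 2 and 6 counts in a library.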

Additional observations from a re-analysis of the deposited data

Results flagged for a closer look

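Lsp1gamma was at 3.75 CPM in glial overexpression 4, while the other 4 libraries of that group lay between 1.27 and 1.83 CPM. The gap to the nearest library, taken on CPM, was 0.775 of the group's range, above Dixon's limit for 5 values. On that scale it was the only value so far from its group among 30 combinations of gene and group. Chance gives about 1 such in 20. The rule was not run on a log scale, where other values can stand out. Lsp2 in nSyb-Gal4 control 1, at 37.6 CPM beside 597 to 1116 CPM in the rest of its group, was not flagged on CPM.

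The effect of Bchs overexpression on Fbp1 differed between glia and neurons by -2.82 on the log2 scale (SE 0.59, adjusted p = 0.0107, edgeR over 30 libraries). Against the Gal4 controls only the difference was -2.10 and not called (adjusted p = 0.269). Each effect, overexpression minus the mean of both controls, was -1.38 in the glia and 1.41 in the neuron dataset. In the neuron dataset, overexpression stood at 0.34 against nSyb-Gal4 and at 2.48 against UAS controls, and nSyb-Gal4 stood at 2.14 against UAS controls. Extraction differed between the datasets and cannot be told apart from the driver.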

How the results depend on the processing

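Depth limits Lsp1alpha and Fbp1, with single libraries at 2 and 6 counts. Over all values of the 5 genes and counts of calls, 1347 settings kept direction and side of the threshold, 28 ended a call, 8 added one, 24 turned a sign and 60 counts of calls moved by over 1.5 times; the cause was not tested. Called genes that kept their call in every alternative were Lsp1gamma in neuronal overexpression and Fbp1 in both neuron dataset groups, each against UAS controls. Lsp1alpha kept its call too in repo-Gal4, neuronal overexpression and nSyb-Gal4 against UAS controls. It passed the filter through driver flies alone and had to differ from UAS flies, so its kept calls add no support.

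Signs turned only in small, uncalled differences. Lsp1beta in glial overexpression against UAS controls stood at 0.15 without repo-Gal4 control 3 and UAS control 2. Lsp1alpha between the UAS controls stood at 0.037 without them. Lsp1beta in the glial minus neuronal effect stood at 0.090 against Gal4 controls only. Leaving out single libraries gave ranges of -0.71 to 0.21 for Lsp2 in glial overexpression against repo-Gal4 controls, -0.34 to 0.13 for Lsp1beta in glial overexpression against UAS controls and -0.14 to 0.32 in repo-Gal4 against UAS controls. They were -0.085 to 0.55 for Fbp1 in neuronal overexpression against nSyb-Gal4 controls, -0.20 to 0.35 for Lsp2 in neuronal overexpression against UAS controls, and -0.18 to 0.12 for Lsp1alpha between the UAS controls.

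Replicate numbers matched libraries in part in the glia dataset and hardly in the neuron dataset. Of 15 same-numbered pairs in each, 8 in the glia and 1 in the neuron dataset correlated above 0.1. In all, 7 and 2 libraries correlated best with their own number. In the glia dataset number 1 gave r of 0.499, 0.460 and 0.629, and number 4 gave 0.259, 0.544 and 0.434. Numbers 2, 3 and 5 gave both signs. A shared effect of the number was not itself tested. With the replicate block, storage gene calls became 0 in glial overexpression against UAS controls (Lsp1alpha, adjusted p = 0.0838) and 0 in neuronal overexpression against nSyb-Gal4 controls, and Lsp2 in neuronal overexpression against UAS controls stood at -0.19. All-gene calls with the block were 21 in glial overexpression against repo-Gal4 and 65 against UAS controls, 54 between these controls and 74 in the glial minus neuronal effect. Lsp1beta in nSyb-Gal4 against UAS controls stood at 1.13 with the block and lost its call (adjusted p = 0.116), leaving 3 storage gene calls there. Between the UAS controls of the datasets, with the number alone as block, 0 of 5 storage genes and 284 genes were called.

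All-gene calls moved by over 1.5 times elsewhere too. In glial overexpression against repo-Gal4 controls (54) they were 167 with DESeq2, 191 with 30 libraries and 707 without repo-Gal4 control 3 and UAS control 2, and 33 to 201 leaving out single libraries. Against UAS controls (126) they were 369, 541 and 1919, 46 with 2 groups, and 76 to 356. Between repo-Gal4 and UAS controls (99) they were 235, 305 and 484, 55 with 2 groups, and 64 to 291. With 30 libraries they were 311 in neuronal overexpression against nSyb-Gal4 controls (1782), 628 against UAS controls (4157) and 367 between these controls (2759). Between the UAS controls (340) they were 651 with DESeq2 and 5761 without the 2 libraries, and 227 to 2834. In the glial minus neuronal effect (123) they were 273, 3836, 27 against Gal4 and 237 against UAS controls only, and 88 to 464.

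Storage gene calls were 2 with DESeq2 in glial overexpression and in repo-Gal4 against UAS controls, and 0 with 2 groups in the first. In neuronal overexpression against nSyb-Gal4 controls they were 0 with no filter, 2 groups or 30 libraries, and 0 to 1 leaving out single libraries. In nSyb-Gal4 against UAS controls they were 2 with 30 libraries. In the glial minus neuronal effect they were 0 against Gal4 controls only and 2 without repo-Gal4 control 3 and UAS control 2.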

Other observations

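Markers of other head tissues were counted in the same way against both controls. In neuronal overexpression 4.74% of all genes rose and 5.43% fell against both controls. There 3 of 8 muscle genes fell, with Mhc, the muscle myosin heavy chain, lower by 0.45 ± 0.09 against nSyb-Gal4 and 0.40 ± 0.09 against UAS controls on the log2 scale. The glial transcription factor gene repo fell by 0.20 ± 0.06 and 0.30 ± 0.06, and ninaA, a chaperone of rhodopsin, fell by 0.36 ± 0.07 and 0.43 ± 0.07, each the only call among 8 genes of its list. Hemocyte and neuron lists held 0 of 8 calls each. In glial overexpression all lists held 0 calls. The neuron list still had a median log2 fold change of -0.84 against repo-Gal4 and -1.02 against UAS controls there. Over all genes the medians were -0.02 and -0.09. Its summed CPM was 1745 to 6175 in glial overexpression (median 2902), 517 to 7183 in repo-Gal4 controls (median 6691) and 483 to 6928 in UAS controls (median 6662). The cause was not tested. Without repo-Gal4 control 3 and UAS control 2, the glial genes moody and wrapper and the caspase gene Dronc were called higher and Ddc, the dopa decarboxylase gene, lower in glial overexpression, beside 330 higher and 112 lower of 11129 genes, and 0 of 5 storage genes.

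Of the neighbours of Lsp1gamma called between nSyb-Gal4 and UAS controls, 2 differed in the direction of Lsp1gamma and 2 in the other. CG43149, whose start lies 12.6 kb away, was higher by 1.27 ± 0.12 (adjusted p = 6.96e-07, edgeR), and mthl8, whose start lies 44.0 kb away, by 1.77 ± 0.18 (adjusted p = 8.64e-06), while Lsp1gamma stood at 1.11 ± 0.27. CG12483, whose start lies 31.2 kb away, stood at -0.49 ± 0.12 (adjusted p = 0.00642, edgeR). The gene lncRNA:CR45401, at 58.6 kb, stood at -0.64 ± 0.18 (adjusted p = 0.0188). These neighbours were named after their values were seen, and 4 of 7 tested neighbours were called (25.6% of all genes). Between repo-Gal4 and UAS controls 0 of 7 were called, beside 0.888% of all genes, with CG43149 at 0.91 ± 0.28 (adjusted p = 0.257).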
